A study of Mus musculus with 18 samples.

Results

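Type I interferon response genes were measured in natural killer (NK) cells from the spleens of mice without Runx3, a transcription factor of the Runt family, and of wild-type mice. The genes were chosen by symbol from a list of 43 genes that type I interferons induce. Of the 43, 40 had a probe set of their own, out of 19938 genes on the array that had one. Isg15 and Gbp2 shared their probe sets with other genes and were not used, and Ifi44 was not analysed here. Irf1 had several probe sets and was read from the one with the highest mean over the 18 arrays. No filter on low values was set, so all 40 genes were tested. Their probe sets had means over the 18 arrays of 5.24 (log2, Mx2) to 12.92 (Sp100), which differ between probe sets also with their design and set no order of abundance. Mx2, Rsad2, Oas2 and Parp12 lay below the median of all probe sets, 6.33.

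The mice were of the ICR strain, 6 weeks old, and labelled as male or female without a split. They were Runx3 -/- (KO) or Runx3 +/+ (WT), and the labels name no cell type to which the deletion is limited. Animals of both genotypes had received a pair of injections of IL15/Ra complexes, which pair the cytokine interleukin-15 with its receptor alpha, 2 days apart, so every value below is from cells stimulated in the animal. NK cells were enriched from spleen by negative selection, and NKp46+ cells were sorted by CD27 and CD11b. Cells with CD27 alone, which the labels call immature, are named CD27 here. Cells with both proteins are named DP and those with CD11b alone are named CD11b, and the labels call both of these mature. The series' design text writes CD11c for the last subset, where the sorting protocol has CD11b. Each of the 6 groups (CD27 KO, CD27 WT, DP KO, DP WT, CD11b KO and CD11b WT) had 3 arrays. Whether arrays that carry the same replicate number came from 1 animal is not stated in the labels. The p-values therefore reflect only how far these samples differed, which may in part be technical.

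Type I interferons are secreted when a cell detects foreign nucleic acid, and they signal through the receptor chains Ifnar1 and Ifnar2 and the kinases Jak1 and Tyk2. STAT proteins then join Irf9 in a complex that binds the interferon-stimulated response element (ISRE) in promoters and switches on genes that sense viral RNA, degrade it or block its translation. In NK cells type I interferon is known to raise cytotoxicity and to support survival during viral infection, and many of these genes also have a basal level without infection.

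The ISRE is the sequence feature that defines this response, so the promoters of 5 of the genes are shown, those with the largest range of group means among genes that hold the motif. Promoters were taken from RefSeq (build GRCm38.p6) as 300 bases, 250 before and 50 after a start given for the gene, read in the direction of transcription. For Oas3 and Ddx60 this start lay within the bounds of the gene and not at its outer edge. Capitals mark the ISRE letters on either strand, GAAA followed by any 2 bases and a further GAAA. Ifitm3 encodes a membrane protein that blocks the entry of enveloped viruses, and its window is chr7:141010695-141010994 on the minus strand. Oas3 makes the 2-5A that activates the ribonuclease RNase L (window chr5:120777610-120777909, minus strand). Ifit1 binds viral RNA that lacks cap methylation (chr19:34640639-34640938, plus strand). Ddx60 is a helicase linked to RNA sensing (chr8:61927837-61928136, plus strand), and Ifih1, known as MDA5, senses long double-stranded RNA (chr2:62646206-62646505, minus strand).
Ifitm3: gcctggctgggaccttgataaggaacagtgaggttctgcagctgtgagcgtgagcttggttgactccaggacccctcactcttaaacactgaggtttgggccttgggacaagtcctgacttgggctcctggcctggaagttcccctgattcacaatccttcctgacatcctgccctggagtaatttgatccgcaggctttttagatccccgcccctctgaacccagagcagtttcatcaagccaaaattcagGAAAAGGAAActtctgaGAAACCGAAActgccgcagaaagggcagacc
Oas3: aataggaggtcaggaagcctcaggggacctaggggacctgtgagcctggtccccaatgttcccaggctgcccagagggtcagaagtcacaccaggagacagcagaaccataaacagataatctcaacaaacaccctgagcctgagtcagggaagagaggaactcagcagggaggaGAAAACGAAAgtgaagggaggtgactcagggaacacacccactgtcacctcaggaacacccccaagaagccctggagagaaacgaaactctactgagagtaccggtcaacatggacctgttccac
Ifit1: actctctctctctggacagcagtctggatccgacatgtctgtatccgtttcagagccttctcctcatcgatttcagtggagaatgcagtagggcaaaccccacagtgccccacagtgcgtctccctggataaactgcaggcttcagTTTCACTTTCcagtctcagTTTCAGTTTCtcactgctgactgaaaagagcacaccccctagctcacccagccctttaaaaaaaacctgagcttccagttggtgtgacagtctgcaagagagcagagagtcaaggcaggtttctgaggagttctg
Ddx60: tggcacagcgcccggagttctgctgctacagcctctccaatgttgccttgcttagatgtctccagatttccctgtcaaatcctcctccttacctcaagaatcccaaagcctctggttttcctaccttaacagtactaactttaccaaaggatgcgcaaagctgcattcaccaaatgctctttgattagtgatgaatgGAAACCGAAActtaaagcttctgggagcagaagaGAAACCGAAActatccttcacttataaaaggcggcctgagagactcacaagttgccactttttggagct
Ifih1: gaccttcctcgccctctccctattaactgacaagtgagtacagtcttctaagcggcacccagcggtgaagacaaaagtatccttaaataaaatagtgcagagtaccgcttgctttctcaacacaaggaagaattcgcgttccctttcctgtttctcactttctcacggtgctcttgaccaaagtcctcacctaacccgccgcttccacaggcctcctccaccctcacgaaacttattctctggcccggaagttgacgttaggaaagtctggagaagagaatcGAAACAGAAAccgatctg
With -1 as the base before the start and 1 as the first base after it, the motif stood at -75 to -66 in Oas3. In Ifit1 it was found at -104 to -95 and at -85 to -76, and in Ddx60 at -53 to -44 and at -19 to -10. In Ifitm3 it lay past the start, at 3 to 12 and at 20 to 29, and in Ifih1 at 33 to 42.

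The promoter table from RefSeq used here matched 31 of the 40 genes. The ISRE letters were present in 13 of the 31 (41.9%), against 1079 of 27025 genes in the table (3.99%). The others with the motif were Bst2, Eif2ak2, Gbp3, Ifit3, Rsad2, Stat2, Trim21 and Trim30a. The letters TTCNNNGAA, the core of the element that STAT dimers bind, were in 9 of the 31 (29.0%) and in 9.55% of all genes. In Ifitm3 and Bst2 a match to them overlapped an ISRE match. The letters TGTGGT of the Runt family motif were in 6 of the 31 (19.4%), namely Adar, Cmpk2, Isg20, Oasl2, Samhd1 and Stat2, and in 18.9% of all genes. Each motif was searched on both strands, and a match describes these letters in this window and does not show binding.

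The sorted cells carried NK markers on every array: Ncr1, which encodes NKp46, read 13.45 to 13.81 (log2) on the 18 arrays. The arrays of KO replicate 3 stood apart. The mean of 27 cell cycle genes was 10.37 to 10.73 on its 3 arrays, against at most 8.47 on the other KO arrays and at most 7.29 on WT arrays. The CD11b array of KO replicate 3 also carried markers of other cells. Over the 10 neutrophil, 9 macrophage, 8 dendritic cell and MHC class II and 5 plasmacytoid dendritic cell genes its means were 9.30, 6.94, 8.80 and 8.10, against at most 5.62, 5.76, 6.74 and 5.98 on the other 17 arrays. Of the defining markers, Lyz2 read 12.27, Cd74 11.68 and Siglech 10.47 on it, while C1qa read 4.79, within the 4.72 to 4.84 of the other arrays. CD11b KO replicate 1 had a lower signal of some of these markers, with Lyz2 at 7.96 and Cd74 at 6.97. Cd74 read 7.86 on the CD27 array and 8.58 on the DP array of KO replicate 3. In such bulk samples fewer cells of a type and less RNA per cell cannot be told apart. The counts of members that passed in KO against WT cells and in KO CD11b against CD27 cells are given with and without KO replicate 3, as are members whose value it changed most, while counts of arrays without overlap include it. Runx3 itself was lower in KO arrays, by 1.40-fold to 1.55-fold in the 3 subsets (limma, adjusted p = 0.0175 to 0.0416). Its probe set still read 10.73 to 11.46 on KO arrays, against 11.39 to 11.85 on WT arrays, all above the median probe set of 6.33.

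The first question was whether the interferon response genes differed between KO and WT cells in each subset. Few passed in the fit on all 18 arrays. Oas3 was higher in KO CD27 cells and in KO DP cells, and no other member passed in a single subset. On the average over subsets, with the 9 arrays of a genotype counted as separate, 6 genes passed higher in KO and 1 lower. Those higher were Oas3, its relative Oasl2, the deoxynucleotide hydrolase Samhd1, the nucleic acid sensor Zbp1, the GTPase Gbp3 and Ifitm3. The ubiquitin ligase Herc6 was lower. With the arrays of a replicate number as a random block 3 of these 7 calls were kept, and with those arrays averaged first 0 were. The median KO minus WT difference was -0.01 log2 in CD27 cells, -0.01 in DP cells and 0.07 in CD11b cells for the 40 genes, against -0.01, -0.01 and -0.02 over all 19938 genes. The DP median was 0.17 log2 without KO replicate 3 (all genes -0.01). With array weights the CD27 median was 0.18 log2 (all genes 0.00), and 9 of the 40 passed there. The share of all probe sets that passed with these weights is not given, so this count has nothing to be set against.

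Oas3 read 8.35, 7.53 and 8.31 (log2) on the KO CD27 arrays, against 7.05, 6.38 and 6.53 on the WT CD27 arrays. In DP cells it read 8.19, 7.64 and 7.81 in KO, against 6.47, 5.96 and 6.29 in WT. In CD11b cells the values were 6.60, 6.64 and 6.75 in KO, against 5.89, 5.83 and 5.69 in WT. Each KO array lay above each WT array of its subset, and in both genotypes the CD11b arrays were the lowest. The rise was 2.66-fold in CD27 cells (95% interval 1.92 to 3.69, limma, adjusted p = 0.00695). It was 3.11-fold in DP cells (2.24 to 4.32, adjusted p = 0.00395). The CD11b ratio was 1.82 (1.31 to 2.52), with an adjusted p of 0.0822. The difference between the CD11b and the CD27 effect was -0.55 log2 (interval -1.22 to 0.12) and did not pass (adjusted p = 0.919). Without KO replicate 3 the CD27 and DP differences were 1.29 and 1.67 log2 (adjusted p = 0.0382 and 0.0167). With only the 2 compared groups in the fit both calls were lost (adjusted p = 0.197 and 0.0771).

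**Figure D1:**
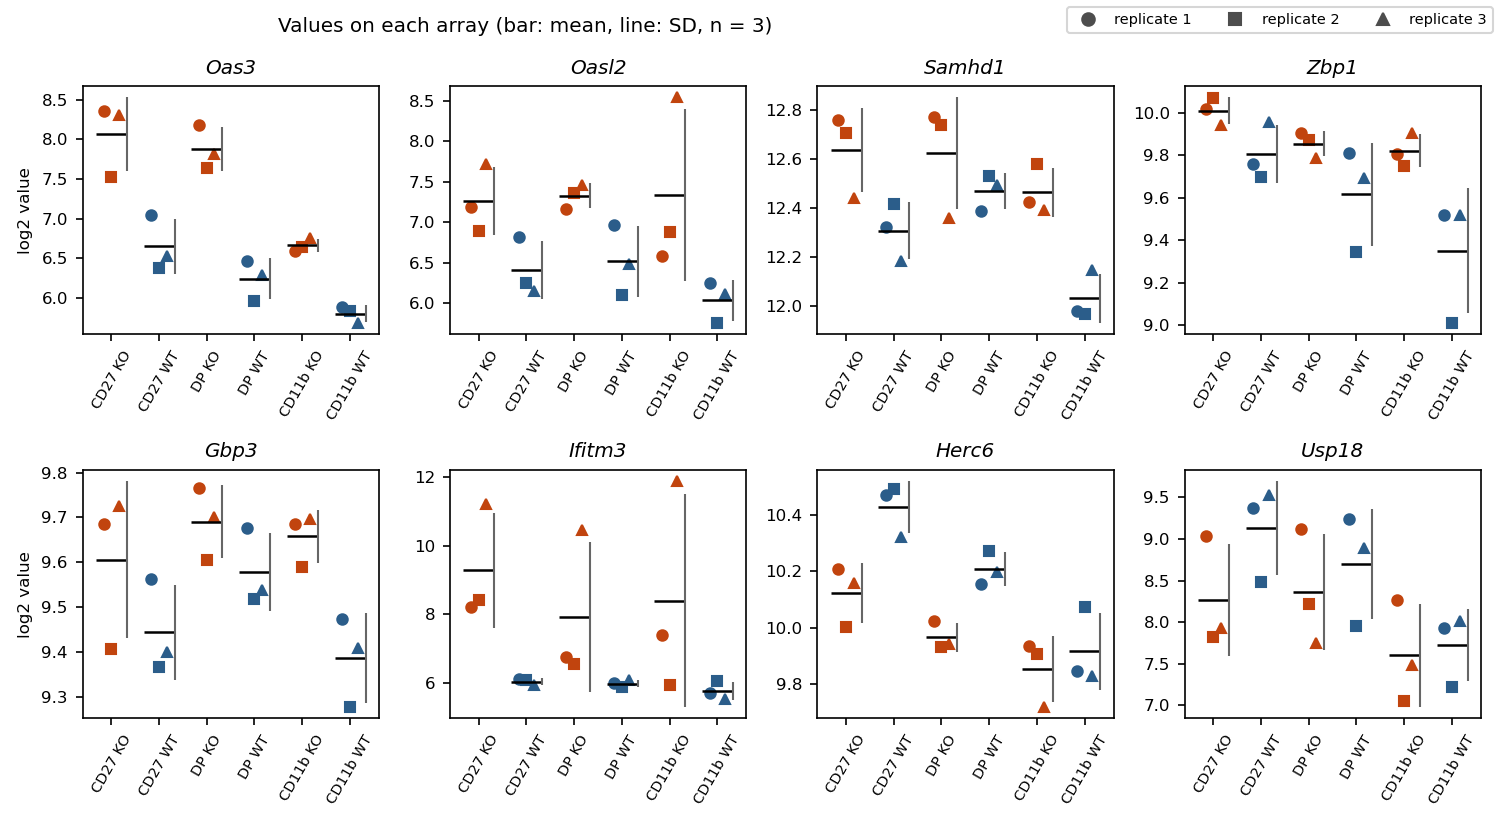
Log2 values of 8 interferon response genes on each array, by subset and genotype (KO in orange, WT in blue, marker shape for the replicate number, horizontal bar for the mean, vertical line for the SD of 3 arrays). Oas3 and Oasl2 lie higher on every KO array than on the WT arrays of the same subset, while the KO arrays of replicate 3 carry the highest Ifitm3 values, 10.45 to 11.88.

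In CD27 cells 1 of the 40 genes passed, higher in KO, beside 0.907% of all 35399 probe sets (0.257% higher and 0.650% lower), and 7 had an unadjusted p under 0.05. In DP cells it was again 1, higher in KO, beside 0.395% of probe sets (0.169% higher and 0.226% lower), and 2 had an unadjusted p under 0.05. In CD11b cells limma called 0 of the 40, beside 1.29% of probe sets (0.455% higher and 0.836% lower), and 5 had an unadjusted p under 0.05. Over all 19938 genes, 2267 had an unadjusted p under 0.05 in CD27 cells, 1856 in DP cells and 2777 in CD11b cells. Without KO replicate 3 the counts were 3 in CD27 cells (1.29% of probe sets), 1 in DP cells (0.557%) and 1 in CD11b cells (1.36%). The 3 were Oas3, Samhd1 and Ifitm3, and the 1 in CD11b cells was Samhd1.

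Markers of T cells also differed between the genotypes in CD27 cells. The mean of 7 T cell genes was 7.02 to 7.23 on KO CD27 arrays, against 7.55 to 8.04 on WT CD27 arrays, with a median difference of -0.41 log2, and Cd3e and Cd3d fell. Cd3e, a chain of the T cell receptor complex, read 6.39, 6.69 and 7.65 in KO CD27 cells, against 10.49, 11.09 and 8.14 in WT CD27 cells. Cd4 read 6.19, 5.65 and 6.71 in KO CD27 cells, against 4.95, 5.06 and 4.90 in WT CD27 cells, and Cd8b1 was at most 5.69 in both. In DP and CD11b cells none of the 7 passed by limma, and 0 had an unadjusted p under 0.05. Whether these transcripts came from T cells, and the part of such cells in the CD27 values, was not tested.

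Genes were also counted by whether the arrays of the genotypes overlapped. In CD27 cells 6 genes lay higher and 4 lower on all KO arrays, where 5.66% and 10.7% of probe sets did. In DP cells 4 lay higher and 2 lower (6.07% and 8.53% of probe sets), and in CD11b cells 7 higher and 1 lower (7.50% and 11.2%). Oas3 and Oasl2 alone, 2 of the 40, were higher on every KO array in all 3 subsets, as were 1.31% of probe sets. None of the 40 was lower in all 3, where 1.57% of probe sets were.

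The transcription factors of the response were close to level between the genotypes. Stat2, Irf9, Irf7 and Irf1 had 0 calls in any subset by limma, and their averages over subsets had a median of -0.04 log2. Irf9, the DNA-binding partner of the STAT proteins, read 10.41 ± 0.19 (mean ± SD, n = 3) in KO CD27 cells and 10.44 ± 0.01 in WT CD27 cells. Irf7, which amplifies interferon production, read 10.07 ± 0.35 in KO and 10.15 ± 0.10 in WT CD27 cells. The spread of Irf7 between KO arrays came from replicate 3, which read 9.70, against 10.39 and 10.13 on the other 2.

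Among the sensors Zbp1 alone passed averaged over subsets. Its mean was higher in KO in each subset, and its arrays overlapped in CD27 and in DP cells. It read 9.81, 9.75 and 9.91 in KO CD11b cells, against 9.52, 9.01 and 9.52 in WT CD11b cells. All KO values lay above the WT values in this subset, but the difference of 0.47 log2 did not pass by itself (adjusted p = 0.120). Ifih1 read 8.08, 7.97 and 7.96 in KO CD27 cells, against 8.24, 8.44 and 8.63 in WT CD27 cells. These arrays did not overlap either, and the difference of -0.44 log2 did not pass (adjusted p = 0.323).

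The RNA effectors besides Oas3 included Oasl2, which read 7.18, 6.89 and 7.72 in KO CD27 cells, against 6.82, 6.25 and 6.15 in WT CD27 cells. In DP cells it read 7.16, 7.36 and 7.46 in KO, against 6.97, 6.10 and 6.49 in WT. In CD11b cells it read 6.58, 6.89 and 8.55 in KO, against 6.25, 5.76 and 6.11 in WT. The groups did not overlap in any subset, and the high value of 8.55 is on the CD11b array of KO replicate 3. The differences were 0.86, 0.81 and 1.30 log2 in CD27, DP and CD11b cells, with adjusted p-values of 0.434, 0.551 and 0.153. With KO replicate 3 left out they were 0.63, 0.74 and 0.70 log2 (adjusted p = 0.305, 0.365 and 0.283). Oas2, another 2-5A synthetase, read 5.59, 5.60 and 7.37 in KO CD11b cells, against 5.44, 5.61 and 5.44 in WT CD11b cells, so its mean difference of 0.69 log2 there (adjusted p = 0.398) lay in 1 array, and was 0.10 log2 without KO replicate 3. On the other 17 arrays Oas2 was at most 5.91. Ifit2, an RNA-binding protein of the Ifit family, read 8.99, 9.12 and 8.92 in KO DP cells, against 8.81, 8.35 and 8.85 in WT DP cells, a difference of 0.34 log2 (adjusted p = 0.537).

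The 3 enzymes that act on nucleotides, Samhd1, Rsad2 and Cmpk2, all had higher means in KO in each subset. Of the 3, Samhd1 alone passed averaged over subsets. Cmpk2 read 6.54, 6.58 and 6.51 in KO CD11b cells, against 6.46, 5.99 and 6.08 in WT CD11b cells. These arrays did not overlap, and Cmpk2 did not pass. Samhd1 read 12.76, 12.71 and 12.44 in KO CD27 cells, against 12.32, 12.42 and 12.18 in WT CD27 cells. In CD11b cells it read 12.42, 12.58 and 12.39 in KO, against 11.98, 11.97 and 12.15 in WT. Both pairs of groups were separate, at differences of 0.33 and 0.43 log2 (adjusted p = 0.241 and 0.0863). Without KO replicate 3 these were 0.43 and 0.47 log2 and passed (adjusted p = 0.0373 and 0.0223).

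In the ISG15 system, Herc6 attaches the ubiquitin-like protein ISG15 in mouse, and Usp18 removes it and dampens receptor signalling. These 2 genes had lower means in KO in each subset. The median of their differences was -0.58 log2 in CD27, -0.29 in DP and -0.09 in CD11b cells. Ube2l6, the ISG15-conjugating enzyme, went the other way, 0.56 log2 higher in KO averaged over subsets, and is described below with the other lists. Herc6 read 10.21, 10.001 and 10.16 in KO CD27 cells, against 10.47, 10.49 and 10.32 in WT CD27 cells. The groups did not overlap, and the difference of -0.31 log2 did not pass (adjusted p = 0.122). Usp18 read 9.04, 7.82 and 7.93 in KO CD27 cells, against 9.38, 8.48 and 9.53 in WT CD27 cells. These overlapped, with a difference of -0.86 log2 and an interval of -1.86 to 0.13 (adjusted p = 0.522).

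Ifitm3 had the widest range of the 40 genes. It read 8.21, 8.42 and 11.22 in KO CD27 cells, against 6.11, 6.07 and 5.92 in WT CD27 cells. In DP cells it read 6.74, 6.55 and 10.45 in KO, against 5.99, 5.87 and 6.07 in WT. In CD11b cells it read 7.38, 5.93 and 11.88 in KO, against 5.70, 6.05 and 5.52 in WT. WT arrays held to a narrow band, while KO replicate 3 was far above the other KO arrays in each subset. The differences were 3.25, 1.94 and 2.64 log2 in CD27, DP and CD11b cells, with adjusted p-values of 0.325, 0.667 and 0.406. Without KO replicate 3 the CD27 difference was 2.28 log2 and passed (adjusted p = 0.00603). Across the 18 arrays the deviations of Ifitm3 from the group means had r = 0.93 with those of the cell cycle genes and r = 0.79 with those of the macrophage genes. Other members deviated with these lists as well. Over the 40 genes r ran from -0.91 (Irf1) to 0.93 (Ifitm3) with the cell cycle genes. With the macrophage genes it ran from -0.67 (Sp100) to 0.94 (Oas2), and was 0.82 for Bst2 and 0.75 for Oasl2. The 18 arrays include the samples that stand apart, and the part of other cells or of dividing cells in these levels was not tested.

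In the remaining roles no gene passed in a single subset. The GTPases Mx1, Mx2 and Gbp3 had a median of -0.31 log2 in CD27, -0.07 in DP and 0.07 in CD11b cells. For Mx2 all KO CD27 arrays lay below the WT CD27 arrays. The ADP-ribosyltransferases Parp9, Parp12 and Parp14 and Dtx3l, the ubiquitin ligase that pairs with Parp9, had a median of 0.05 log2 averaged over subsets. By limma 0 of the 4 passed. Parp12 read 5.60, 5.75 and 7.27 in KO CD11b cells, against 5.91, 5.70 and 5.63 in WT CD11b cells. The high value of 7.27 is on the array of KO replicate 3. The ubiquitin ligases Trim21, Trim25 and Trim30a and the nuclear body protein Sp100 all had lower averages in KO, with a median of -0.10 log2, and again 0 of 4 passed. Sp100 read 12.89 ± 0.10 in KO and 13.02 ± 0.03 in WT CD27 cells, where its arrays did not overlap. Trim25, which ubiquitinates the RNA sensor RIG-I, read 9.55 ± 0.03 in KO and 9.66 ± 0.05 in WT CD11b cells, also without overlap. Trim30a, a TRIM protein of mouse lymphoid and myeloid cells, read 12.03 ± 0.13 in KO and 12.10 ± 0.10 in WT CD27 cells.

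Averaged over the 3 subsets, 6 genes passed higher and 1 lower, 7 of 40 beside 8.08% of probe sets (2.80% higher and 5.28% lower), and 11 had an unadjusted p under 0.05. Of all 19938 genes 4437 had an unadjusted p under 0.05. Oas3 was 2.47-fold higher (95% interval 2.04 to 2.98, adjusted p = 3.08e-05). Oasl2 was 1.99-fold higher (1.41 to 2.80, adjusted p = 0.0180). Samhd1 was 1.24-fold higher (1.12 to 1.36, adjusted p = 0.0108). Changes of Zbp1 (1.23-fold higher, adjusted p = 0.0274), Gbp3 (1.13-fold higher, adjusted p = 0.0433) and Herc6 (1.15-fold lower, adjusted p = 0.0188) were small. Ifitm3 was 6.11-fold higher, with a wide interval of 2.04 to 18.3 (adjusted p = 0.0431). This average counts the 9 arrays of a genotype as separate. With the arrays of a replicate number within a genotype as a random block, Oas3, Samhd1 and Oasl2 passed (3 of 40, beside 4.48% of probe sets). With the arrays of a number averaged first 0 of 40 did (beside 0.201% of probe sets, Oas3 at adjusted p = 0.0645). Without KO replicate 3, Oas3, Oasl2, Samhd1, Ifitm3, Ifit2 and Xaf1 rose (6 of 40, beside 6.31% of probe sets), and Ifitm3 was 1.29 log2 higher. Without CD27 WT replicate 2, 4 of the 40 passed. Cell cycle genes moved with the genotype: 16 of the 27 rose in KO averaged over subsets, with a median of 2.03 log2. When KO replicate 3 was left out 20 rose and 1 fell, with a median of 1.13 log2. By limma on the averaged arrays of a number 0 of the 27 passed, and 15 had an unadjusted p under 0.05. The part of these genes in the values above was not tested.

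**Figure D2:**
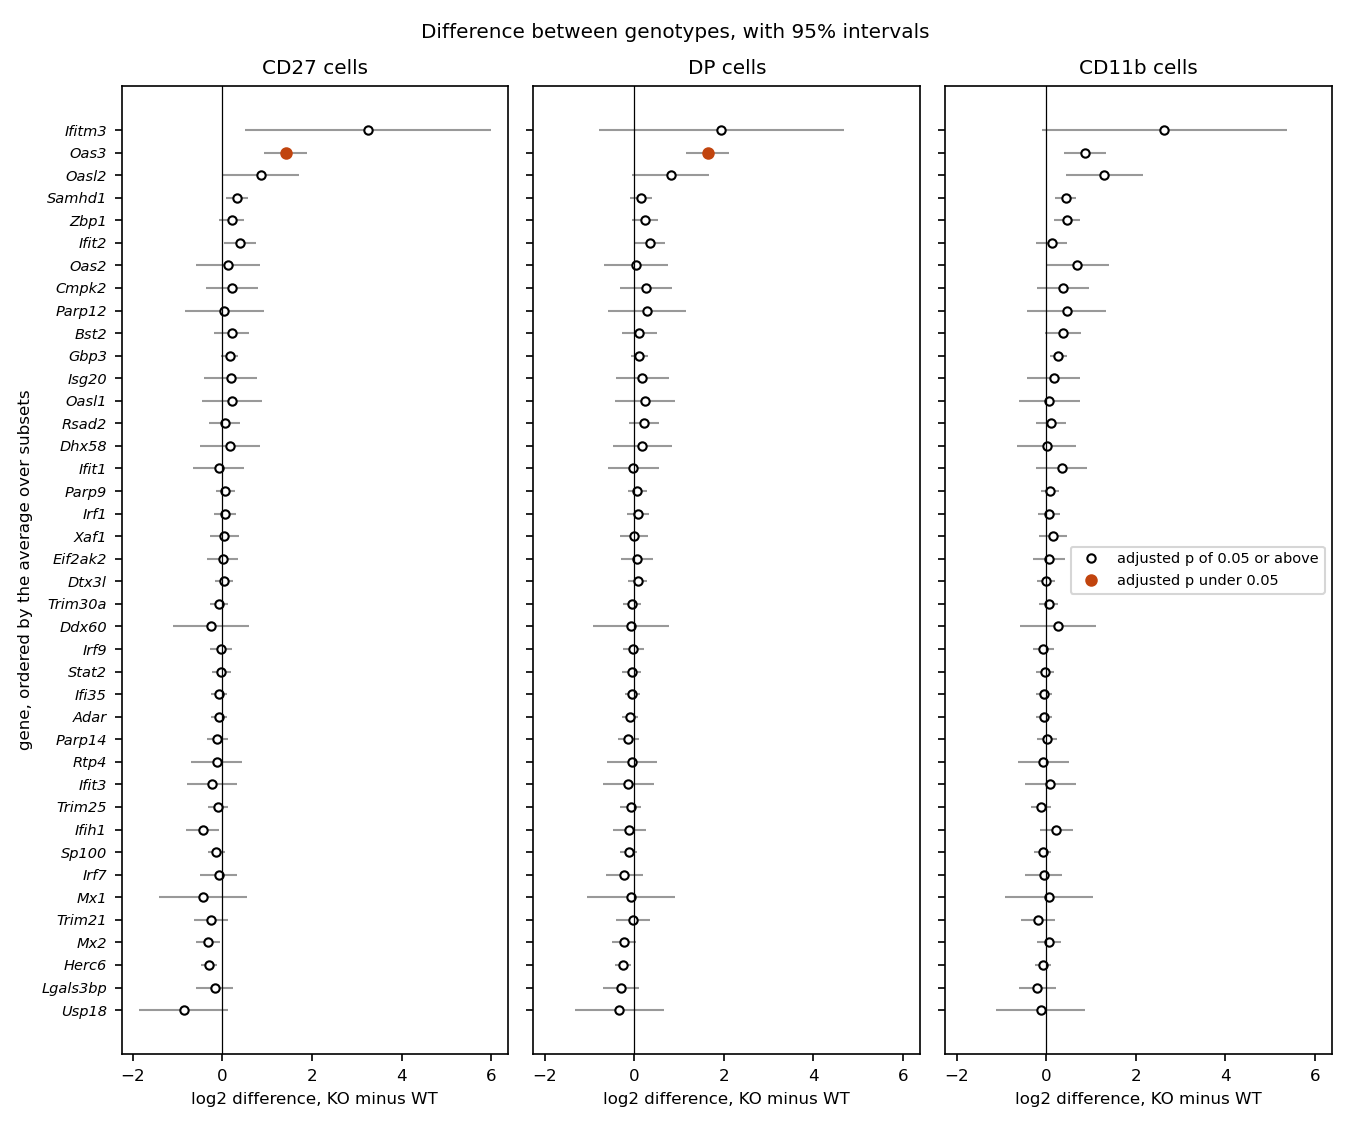
KO minus WT difference (log2) of the 40 interferon response genes in CD27, DP and CD11b cells, with 95% intervals from the limma fit, genes ordered by the average over subsets and filled points at an adjusted p under 0.05. The filled points are Oas3 at 1.41 in CD27 cells and 1.64 in DP cells, and most other genes sit near 0.

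The second question was how the genes differ between mature CD11b and immature CD27 cells. In WT mice most of them were lower in CD11b cells. The median of the 40 genes was -0.32 log2, with 34 of 40 below 0, whereas the median of all genes was 0.03. The largest calls were those of Rtp4, a chaperone of membrane receptors, and of Ifit1, Lgals3bp and Ifih1, each about 2-fold or more lower, and Ifit2 went the other way.

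Rtp4 read 8.40, 7.68 and 7.92 (log2) in WT CD11b cells, against 9.39, 9.52 and 9.50 in WT CD27 cells. Lgals3bp, a secreted galectin-binding glycoprotein, read 10.995, 10.46 and 11.06 in CD11b cells, against 11.94, 11.57 and 11.92 in CD27 cells of WT mice. Ifih1 read 7.73, 7.21 and 7.45 in WT CD11b cells, against 8.24, 8.44 and 8.63 in WT CD27 cells. For each of these genes every CD11b array was below every CD27 array. Rtp4 was 2.77-fold lower (95% interval 1.87 to 4.10, adjusted p = 0.00424). Lgals3bp was 1.96-fold lower (1.47 to 2.60, adjusted p = 0.00824). Ifih1 was 1.96-fold lower as well (1.52 to 2.53, adjusted p = 0.00353). Herc6 read 9.85, 10.07 and 9.83 in WT CD11b cells, against 10.47, 10.49 and 10.32 in WT CD27 cells, and was 1.43-fold lower (1.26 to 1.61, adjusted p = 0.00215). These 4 calls were kept under all 14 alternatives run for them.

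Ifit1 read 5.68, 5.74 and 6.03 in WT CD11b cells, against 7.19, 6.55 and 6.84 in WT CD27 cells. The groups were separate, and Ifit1 was 2.06-fold lower (1.39 to 3.05, adjusted p = 0.0345). Oas3 was 1.80-fold lower (adjusted p = 0.0390) and the GTPase Mx2 1.49-fold lower (adjusted p = 0.0150). Mx2 was at 4.98 ± 0.03 in CD11b and 5.56 ± 0.16 in CD27 cells, below the median probe set. Ifit2 read 8.91, 8.89 and 9.18 in WT CD11b cells, against 8.46, 8.05 and 8.09 in WT CD27 cells, and was 1.73-fold higher (1.36 to 2.22, adjusted p = 0.0115). Ifit2 and Ifit1 thus passed in opposite directions although they belong to the same family. These 4 calls depended on single arrays. Those of Ifit1 and Oas3 were lost without CD27 WT replicate 1 or 3 or any 1 of the 3 CD11b WT arrays (adjusted p up to 0.134 and 0.154), that of Mx2 without CD27 WT replicate 1 or CD11b WT replicate 2 or 3 (up to 0.0682), and that of Ifit2 without CD27 WT replicate 2 or 3 or CD11b WT replicate 3 (up to 0.0566).

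In all, 1 gene passed higher and 7 lower in WT CD11b cells, 8 of 40 beside 5.0% of probe sets (2.88% higher and 2.13% lower), and 18 had an unadjusted p under 0.05. Of the 19938 named genes 741 passed higher and 495 lower, and 3515 had an unadjusted p under 0.05. With 1 array left out 4 to 7 of the 40 passed, with 5 without CD27 WT replicate 1, CD27 WT replicate 3 or CD11b WT replicate 2 and 4 without CD11b WT replicate 3. Arrays of 24 genes lay lower and of 3 higher without overlap, where 11.8% and 16.4% of probe sets did. WT CD11b and CD27 arrays of the same number deviated together, and with the number as a fixed block 18 genes passed, 17 lower and 1 higher, beside 10.9% of probe sets (4.59% lower and 6.33% higher). Those added were Irf9, Irf7, Ddx60, Zbp1, Ifit3, Usp18, Parp9, Parp12, Parp14 and Trim21. Usp18 read 7.92, 7.22 and 8.01 in WT CD11b cells, against 9.38, 8.48 and 9.53 in WT CD27 cells. Replicate 2 was lowest in both subsets, and the difference of -1.41 log2 passed with the block (adjusted p = 0.000249) and not without it (adjusted p = 0.109).

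Markers of T cells moved in the same direction. The mean of 7 T cell genes was 5.96 to 6.21 on WT CD11b arrays, against 7.55 to 8.04 on WT CD27 arrays, and 3 of the 7 fell. Cd3e read 5.37 to 5.55 on WT CD11b arrays, against 8.14 to 11.09 on WT CD27 arrays, while Cd4 was at most 5.08 and Cd8b1 at most 5.69 on all WT arrays, below the median probe set. Whether these transcripts came from T cells, and the part of such cells in the interferon response genes, was not tested.

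Not every role followed this. The transcription factors Stat2 and Irf1 lay higher on all WT CD11b arrays than on the CD27 arrays, at 9.57 ± 0.08 in CD11b and 9.38 ± 0.03 in CD27 cells for Stat2 and 11.54 ± 0.04 in CD11b and 11.37 ± 0.07 in CD27 cells for Irf1, and neither passed (adjusted p = 0.344 and 0.518). Dhx58, known as LGP2, a regulator of Ifih1, was the sensor without a decrease, at 7.94 ± 0.34 in CD11b and 7.77 ± 0.33 in CD27 cells of WT mice. The RNA-editing enzyme Adar read 9.48 ± 0.01 in CD11b and 9.52 ± 0.05 in CD27 cells of WT mice. Mx1, a GTPase that traps viral particles, read 7.16 ± 0.48 in CD11b and 7.12 ± 0.62 in CD27 cells, and its spread between arrays was larger than its difference.

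The members not yet described were mostly lower in WT CD11b cells and did not pass without a block. Each of Parp9, Parp12, Parp14 and Dtx3l had WT CD11b arrays below the WT CD27 arrays, with a median of -0.26 log2 and 0 of 4 passing by limma without a block. Of the 10 RNA effectors, of which Ifit1, Oas3 and Ifit2 passed as given above, 9 had a negative difference, with a median of -0.36. Among them Oasl1, an inhibitor of Irf7 translation in mouse, read 6.67 ± 0.00 in CD11b and 7.28 ± 0.55 in CD27 cells (adjusted p = 0.361). Eif2ak2 read 7.05 ± 0.09 in CD11b and 7.36 ± 0.10 in CD27 cells (adjusted p = 0.366), again without overlap. The exonuclease Isg20 read 6.32 ± 0.27 in CD11b and 6.67 ± 0.28 in CD27 cells (adjusted p = 0.602), and here the arrays overlapped. The nucleotide kinase Cmpk2 read 6.17 ± 0.25 in CD11b and 6.74 ± 0.45 in CD27 cells (adjusted p = 0.314). Ifi35 and Xaf1, which binds the apoptosis inhibitor XIAP, differed by -0.17 and -0.22 log2 (adjusted p = 0.327 and 0.522), both without overlap.

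In KO mice the genes were again mostly lower in CD11b cells, with a median of -0.25 log2, 31 of 40 below 0 and a median of 0.02 over all genes. Rtp4 read 8.06, 8.28 and 7.46 in KO CD11b cells, against 9.75, 9.16 and 9.12 in KO CD27 cells, and was 2.65-fold lower (1.79 to 3.93, adjusted p = 0.0114). Oas3 was 2.64-fold lower (1.90 to 3.66, adjusted p = 0.00335). Lgals3bp read 10.67, 10.80 and 10.46 in KO CD11b cells, against 11.91, 11.54 and 11.47 in KO CD27 cells, and was 2.00-fold lower (1.50 to 2.65, adjusted p = 0.0133). None of these groups overlapped. Ifitm3, the next largest difference, was -0.89 log2 with an interval of -3.62 to 1.85 (adjusted p = 0.851).

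These were 3 of 40 genes, all lower, beside 2.07% of probe sets (1.25% higher and 0.828% lower), and 13 had an unadjusted p under 0.05. Such a p was found for 2595 of all 19938 genes. The arrays of 13 genes lay lower without overlap and of 1 higher, beside 6.42% and 8.90% of probe sets. KO arrays of the same number also deviated together, and with the number as a fixed block 12 genes passed, 11 lower and 1 higher, beside 6.17% of probe sets (2.52% lower and 3.65% higher). Irf9, Irf7, Ddx60, Ifit3, Usp18, Herc6, Parp9 and Trim21 were added as lower and Ifit2 as higher. Without CD27 KO replicate 1 the count was 1, Oas3. Without the 3 arrays of KO replicate 3 it was 4 (1.72% of probe sets), namely Oas3, Rtp4, Irf7 and Ifitm3, and Lgals3bp no longer passed (adjusted p = 0.0514). Lgals3bp was also lost without CD11b KO replicate 1 or 3. With only the 2 compared groups in the fit none of the 40 passed. The T cell genes averaged 6.19 to 6.83 on KO CD11b arrays, against 7.02 to 7.23 on KO CD27 arrays.

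**Figure D3:**
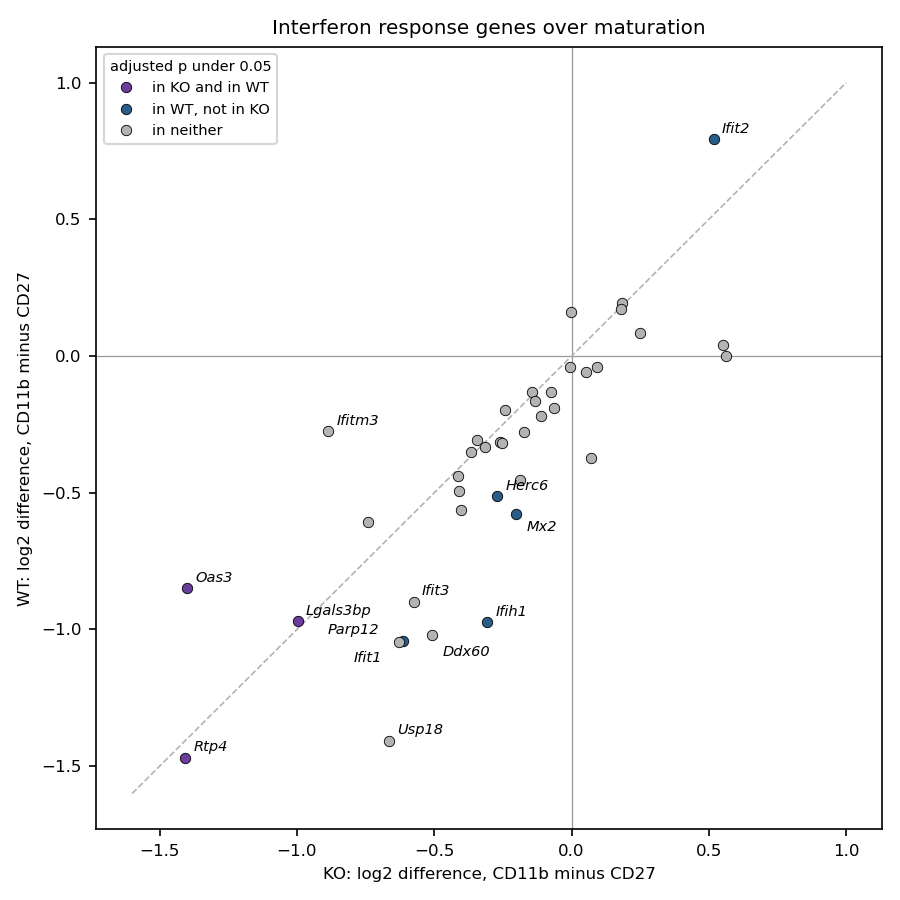
CD11b minus CD27 difference (log2) of the 40 interferon response genes in KO cells (horizontal axis) and in WT cells (vertical axis), coloured by limma's adjusted p without a block, with a dashed line where both are equal. Most points lie below 0 on both axes, with Rtp4 at -1.41 in KO and -1.47 in WT, while Ifit2 lies above 0 on both, at 0.52 in KO and 0.79 in WT.

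Whether maturation differed between the genotypes was tested by the interaction, the KO minus WT difference in CD11b cells minus that in CD27 cells. By limma 0 of 40 genes passed, beside 0.0367% of probe sets, and 1 had an unadjusted p under 0.05 (1009 of all 19938 genes did). That gene was Ifih1, with a difference of 0.66 log2 (95% interval 0.15 to 1.18, adjusted p = 0.710). Usp18 had the largest, 0.74 log2 (-0.66 to 2.15, adjusted p = 0.996), and those of Ifitm3 and Oas2 were -0.61 and 0.56 (adjusted p = 0.999 and 0.989). The interactions of Ifitm3 and Oas2 were -1.38 and 0.0070 log2 without KO replicate 3 (adjusted p = 0.573 and 0.997). The 40 genes had a median interaction of 0.07 log2, with 29 above 0, and all genes one of -0.01.

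The maturation difference was examined in its steps. From CD27 to DP cells limma called 0 of 40 genes in KO mice (1 with an unadjusted p under 0.05, 0.0198% of probe sets called, 0.00565% higher and 0.0141% lower) and 0 of 40 in WT mice (4 with an unadjusted p under 0.05, 0.557% of probe sets called, 0.218% higher and 0.339% lower). The largest differences of DP minus CD27 in KO cells were -1.37 log2 for Ifitm3, -0.54 for Parp12, -0.43 for Rtp4 and 0.41 for Ifit2. With KO replicate 3 left out these were -1.67 for Ifitm3, -0.11 for Parp12, -0.29 for Rtp4 and 0.34 for Ifit2. Those in WT cells were -0.79 for Parp12, -0.52 for Rtp4, -0.48 for Ddx60 and 0.47 for Ifit2. The medians were -0.04 log2 in KO and -0.04 in WT. Of all 19938 genes 921 in KO and 1544 in WT had an unadjusted p under 0.05 in this step. Arrays of 1 gene lay higher and of 1 lower without overlap in KO DP cells (5.79% and 4.35% of probe sets), and of 2 higher and 7 lower in WT DP cells (9.37% and 6.01%).

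The step from DP to CD11b cells held more of the difference, with medians of -0.12 log2 in KO and -0.22 in WT. In KO cells Oas3 was 2.32-fold lower in CD11b than in DP cells (1.67 to 3.22, adjusted p = 0.0251), 1 of 40 beside 0.514% of probe sets (0.282% higher and 0.232% lower), with 5 at an unadjusted p under 0.05. Leaving out any 1 of the 6 KO arrays compared ended this call (0 of 40 passed). Rtp4, Lgals3bp and Usp18 had differences of -0.97, -0.84 and -0.76 log2 (adjusted p = 0.183, 0.0846 and 0.744). With the number as a fixed block 5 genes were lower, beside 1.84% of probe sets: Oas3, Rtp4, Lgals3bp, Usp18 and Irf7. Arrays of 6 genes lay lower and of 0 higher without overlap (5.33% and 6.38% of probe sets). In WT cells Lgals3bp was 1.92-fold lower in CD11b than in DP cells (1.44 to 2.55, adjusted p = 0.0454), 1 of 40 beside 0.525% of probe sets (0.308% higher and 0.218% lower), with 10 at an unadjusted p under 0.05. This call ended as well when any 1 of the 6 WT arrays was left out. Usp18, Rtp4 and Ifit1 had differences of -0.98, -0.95 and -0.84 log2 (adjusted p = 0.606, 0.178 and 0.276). With the fixed block 6 genes were lower, beside 2.40% of probe sets: Irf7, Ifit3, Samhd1, Usp18, Rtp4 and Lgals3bp. Arrays of 17 genes lay lower and of 2 higher without overlap (7.05% and 9.12% of probe sets). Over all 19938 genes, 1584 had an unadjusted p under 0.05 in this step in KO mice and 1842 in WT mice.

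Over the 6 groups, WT CD27 cells had the highest mean of 15 of the 40 genes and KO CD27 cells of 9, while WT CD11b cells had the lowest mean of 21 and KO CD11b cells of 12. KO CD11b cells also had the highest mean of 7 genes. The CD11b array of KO replicate 3 was the highest of the 18 arrays for 4 genes and the lowest for 9. Those high on it included Oas2, Oasl2 and Bst2, which tethers virus particles to the cell and is also a marker of plasmacytoid dendritic cells. Bst2 read 6.45, 6.48 and 7.37 in KO CD11b cells, against 6.31, 6.48 and 6.38 in WT CD11b cells. The part of the other cells on this array in these values was not tested.

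**Figure D4:**
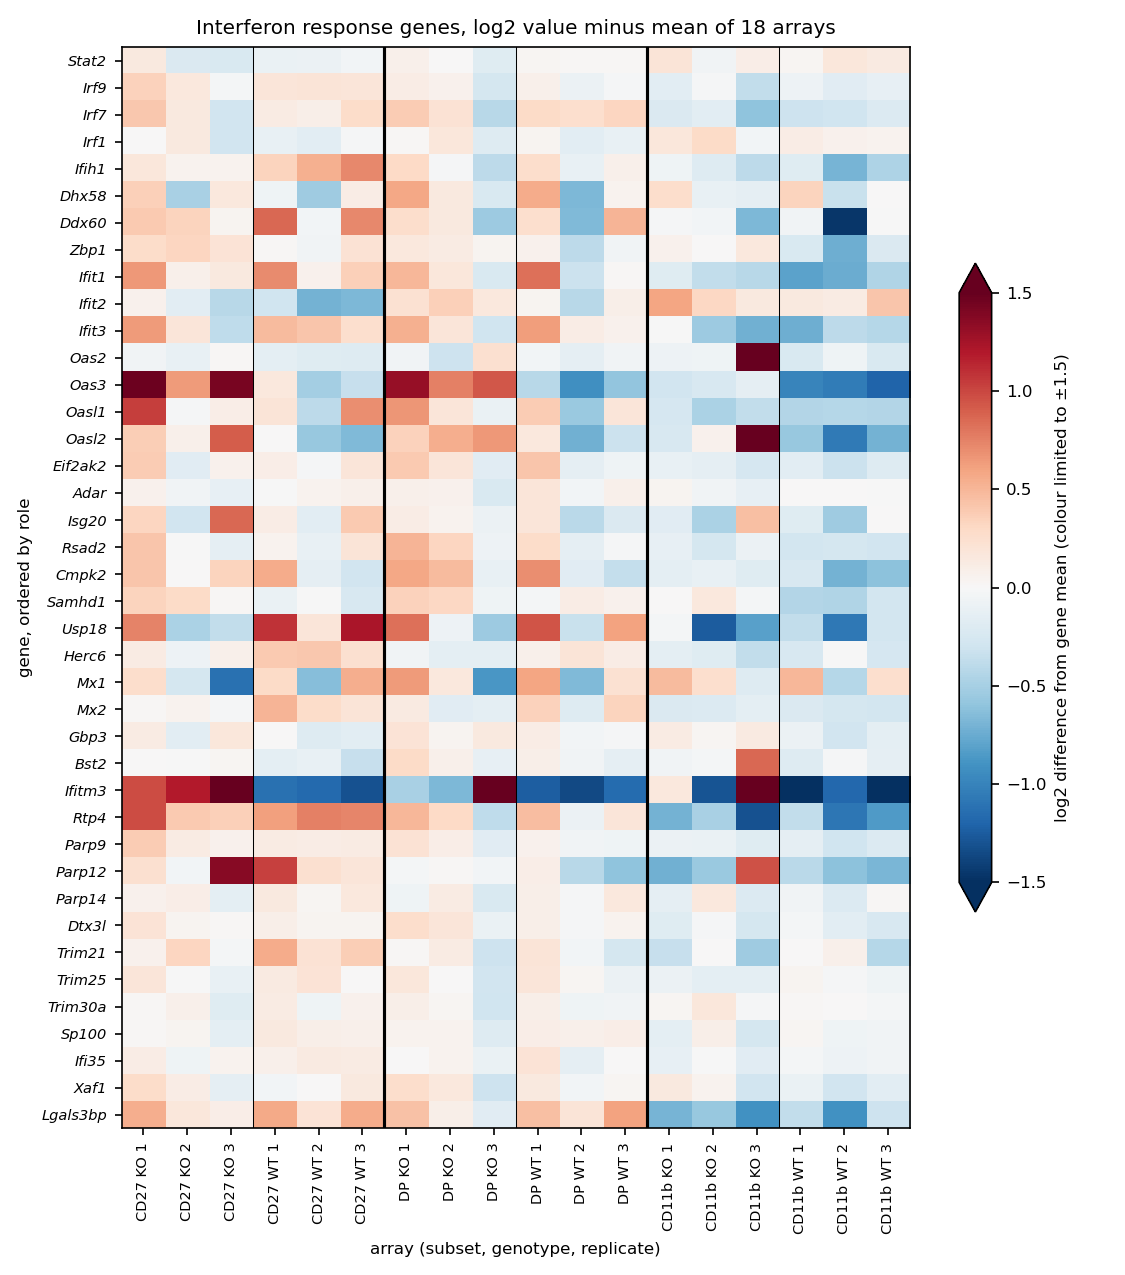
Log2 value of each of the 40 genes on each array minus the gene's mean over the 18 arrays, with genes in the order of their roles and arrays by subset (CD27, DP, CD11b), KO left of WT, colours limited to 1.5 log2 either way. Oas3 and Ifitm3 are red on KO CD27 arrays and blue on WT CD11b arrays. Red cells on the CD11b array of KO replicate 3 include those of Oas2, Oasl2, Bst2, Parp12 and Ifitm3.

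The genes also varied between samples of the same group. Deviations from the group means had a mean pairwise r of 0.32 over the 40 genes, of 0.12 over 69 other interferon-induced genes and of 0.03 over all genes (18 arrays, which share replicate numbers, so r is given as a description). Without the 3 arrays of KO replicate 3 the values were 0.32, 0.06 and 0.01. The gene closest to the mean of the other members was Eif2ak2, the kinase PKR that halts translation, at r = 0.92. It was followed by Parp9 (0.90), Mx1 (0.89), the antiviral enzyme Rsad2, known as viperin (0.88), and Ifit1 (0.86). For 19 genes r was at least 0.7, and for 4 it was below 0: Ifitm3 (-0.54), Oas2 (-0.25), Parp12 (-0.03) and Herc6 (-0.03). Of these, Ifitm3 (-0.11) and Herc6 (-0.11) were still below 0 without KO replicate 3, while Oas2 was at 0.35 and Parp12 at 0.58.

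The samples differed in level as sets. On the arrays of WT replicate 1, 28 to 37 of the 40 genes lay above their group mean, against 2 to 12 on those of WT replicate 2 and 18 to 21 on those of WT replicate 3. On the arrays of KO replicate 1 it was 23 to 34 genes, on those of KO replicate 2 it was 14 to 29, and on those of KO replicate 3 it was 4 to 12. The median deviation reached 0.16 log2 on the DP arrays of KO replicate 1 and WT replicate 1 and -0.23 on the DP array of KO replicate 3. Ddx60 shows the size for a single gene. It read 7.51, 7.40 and 6.70 in KO DP cells, against 7.50, 6.59 and 7.76 in WT DP cells, a spread between samples of over 1 log2 beside a difference between genotypes of -0.08.

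**Figure D5:**
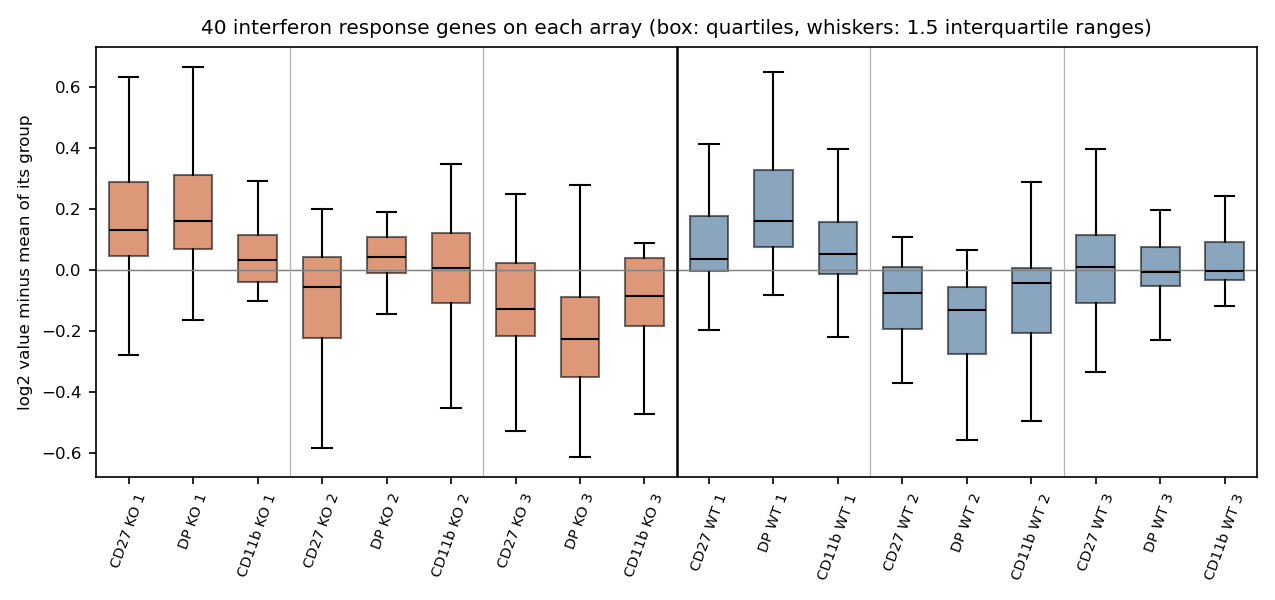
Log2 value minus the mean of its group for the 40 genes on each array (box for the quartiles, line for the median, whiskers to 1.5 interquartile ranges, values beyond them not drawn), with the 3 subsets of a replicate side by side, KO left of WT. The medians of KO replicate 1 and WT replicate 1 lie above 0 and those of KO replicate 3 and WT replicate 2 below it, with medians from -0.23 to 0.16 over the 18 arrays.

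Other genes of the pathway were counted in the same fit. Of 16 interferon genes Ifng, the type II interferon that NK cells secrete, was 1.56-fold higher in KO averaged over subsets (1.20 to 2.04, adjusted p = 0.0415), at 10.59 ± 0.39 in KO and 9.95 ± 0.50 in WT (SD, n = 9 arrays), and the other 15 did not pass. Ifnb1, a type I interferon named here after its values were seen, was below the median probe set, at 4.90 ± 0.09 in KO and 4.91 ± 0.11 in WT. Among 13 receptors, kinases, STATs and inhibitors 0 were higher and 4 lower in KO averaged over subsets, beside the 2.80% and 5.28% of all probe sets. These were the receptor chain Ifnar2 (1.13-fold lower, adjusted p = 0.0192), Jak1 (1.20-fold lower, adjusted p = 0.00863), the phosphatase Ptpn6, known as SHP-1 (1.45-fold lower, adjusted p = 0.0120), and Pias1, an inhibitor of STAT proteins (1.10-fold lower, adjusted p = 0.0480). Of 16 genes of nucleic acid sensing and interferon induction 0 were higher and 2 lower, the transcription factor Irf3 (1.16-fold, adjusted p = 0.0465) and Ddx41 (1.18-fold, adjusted p = 0.0254). As above, this average counts the arrays of a replicate number as separate. With the number as a random block Jak1 and Ptpn6 passed and Ifng, Ifnar2, Pias1, Irf3 and Ddx41 did not (adjusted p = 0.0586 to 0.132), and with the arrays of a number averaged none of the 3 lists held a call by limma (0, 4 and 2 genes of them had an unadjusted p under 0.05). Pias1, Irf3 and Ddx41 did not pass without KO replicate 3 either (adjusted p = 0.146, 0.0654 and 0.0878).

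Of 69 further interferon-induced genes 8 were higher and 3 lower in KO averaged over subsets, beside the 2.80% and 5.28% of all probe sets, and their median was 0.04 log2. The largest rises were those of the GTPase Gbp11 (1.54-fold, adjusted p = 0.00329), Ube2l6, the ISG15-conjugating enzyme (1.48-fold, adjusted p = 0.0380), and Pttg1, the securin of cell division (1.45-fold, adjusted p = 0.00397). Ifi209 and Psmb9, a subunit of the immunoproteasome, were 1.38-fold and 1.28-fold higher (adjusted p = 0.0368 and 0.0283). Ms4a4b, a membrane protein of lymphocytes, was 1.29-fold lower (adjusted p = 0.00447). With the random block 4 of the 69 were higher and 1 lower, and Ube2l6, Ifi209 and Psmb9 did not pass (adjusted p = 0.0876, 0.0688 and 0.0673). By limma on the averaged arrays of a number 0 of the 69 passed, and 12 had an unadjusted p under 0.05. Leaving out KO replicate 3 gave 10 higher and 4 lower, beside 2.74% and 3.57% of probe sets, and Ifi209 and Psmb9 did not pass (adjusted p = 0.0636 and 0.123). In single subsets Ifnar2 fell in KO CD27 cells (1.28-fold lower, adjusted p = 0.0311). N4bp1, an antiviral protein that cleaves RNA, rose in KO CD27 cells (1.48-fold higher, adjusted p = 0.0391). Ms4a4b fell in KO CD11b cells (1.47-fold lower, adjusted p = 0.0308). Ifnar2 and N4bp1 did not pass in CD27 cells without KO replicate 3 (adjusted p = 0.0631 and 0.1002). No other gene of these 4 lists passed in a single subset.

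In WT CD11b against CD27 cells, 1 of the 69 rose and 4 fell, beside 2.88% and 2.13% of probe sets, with a median of -0.15 log2 and 49 of 69 below 0. With the number as a random block 1 rose and 12 fell, beside 4.86% and 3.65% of probe sets. N4bp1 was 2.05-fold higher (adjusted p = 0.000124). Nlrc5, which drives MHC class I genes, was 1.79-fold lower (adjusted p = 0.0320), Gbp9 1.74-fold lower (adjusted p = 0.0327), Cd274, the checkpoint ligand PD-L1, 1.62-fold lower (adjusted p = 0.00927) and Mitd1 1.56-fold lower (adjusted p = 0.000753). The receptor components moved in both directions, 1 of 13 higher and 3 lower, beside the same shares. Tyk2 read 11.30 ± 0.15 in CD11b and 10.66 ± 0.17 in CD27 cells of WT mice, 1.56-fold higher (adjusted p = 0.0118). Ifnar2 read 11.44 ± 0.07 in CD11b and 11.88 ± 0.14 in CD27 cells, 1.36-fold lower (adjusted p = 0.00204). The feedback inhibitors Socs3 and Socs1 were 1.64-fold and 1.38-fold lower (adjusted p = 0.0169 and 0.0423). Of the 16 sensing genes Aim2, a sensor of cytosolic DNA, was 2.61-fold lower (1.60 to 4.25, adjusted p = 0.0244) and Sting1, an adaptor of DNA sensing, 1.30-fold lower (adjusted p = 0.0200), and 0 rose. None of the 16 interferon genes passed by limma, and 1 had an unadjusted p under 0.05. Some of this was present between DP and CD27 cells of WT mice, where Aim2 was 3.00-fold lower (adjusted p = 0.0484), Ifnar2 1.27-fold lower (adjusted p = 0.0488) and N4bp1 1.58-fold higher (adjusted p = 0.0196). Between CD11b and DP cells of WT mice, between DP and CD27 cells of KO mice and between CD11b and DP cells of KO mice no gene of these 4 lists passed.

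In KO CD11b against CD27 cells Tyk2 was 1.58-fold higher (adjusted p = 0.0196), N4bp1 1.51-fold higher (adjusted p = 0.0164), Sting1 1.32-fold lower (adjusted p = 0.0282) and Mitd1 1.35-fold lower (adjusted p = 0.0232). These were 1 of 13 receptor components, 1 of 16 sensing genes and 2 of 69 other interferon-induced genes, beside 1.25% of probe sets higher and 0.828% lower. With the number as a random block 5 of the 69 passed, beside 4.25% of probe sets. N4bp1 and Mitd1 did not pass without KO replicate 3 (adjusted p = 0.0790 and 0.0729). The further interferon-induced genes had a median of -0.12 log2 there, with 45 of 69 below 0. Ifnar2 and Aim2 are given for KO as well because they passed in WT. Ifnar2 read 11.39 ± 0.09 in CD11b and 11.53 ± 0.01 in CD27 cells of KO mice and did not pass (adjusted p = 0.446). Aim2 read 9.23 ± 0.32 in CD11b and 9.50 ± 0.46 in CD27 cells of KO mice (adjusted p = 0.815). The interaction was 0.30 log2 for Ifnar2 and 1.12 for Aim2, and neither passed (adjusted p = 0.643 and 0.793).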

How the data were processed

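Sorted NK cell RNA from 18 samples was measured on Affymetrix Mouse Gene 1.0 ST arrays. The authors deposited log2 probe set values, which per the submitters' processing notes came from RMA, and the notes also name Partek, with no version for either. The log2 scale was judged from the values (3.91 to 14.96). Of 35399 probe sets, 21789 had 1 gene symbol in the platform annotation, 1621 had several and 11989 were not listed. The deposited values were used without further normalization or filter. limma 3.58.1 (R 4.3.3, statmod 1.5.0) fitted a mean for each of the 6 groups on all 18 arrays, leaving 12 residual and 2.18 prior degrees of freedom. Benjamini-Hochberg adjustment of the two-sided p-values ran across all probe sets, and a gene passed at an adjusted p under 0.05. Intervals are 95% intervals of the moderated test. Shares of probe sets given beside counts are over all probe sets. A gene with several probe sets was read from the one with the highest mean. The number of arrays limits the precision, and the median SD within groups was 0.14 log2. The motif search was tested on made sequences.

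The members and the lists of other genes were chosen with earlier results of these data known. In them the symbol Rigi was read as Ddx58, its older name in the annotation, and a gene listed under both Tmem173 and Sting1 was counted once. In each comparison the members that passed were named, with those of the largest difference added up to 4. Of each other list up to 6 passing genes were named, the largest changes first. Further members were named by role, with values. Promoter sequences came from RefSeq.

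Pairing by replicate number was checked on the correlation of deviations from the group means. Between subsets of KO mice every same-numbered pair gave r of 0.213 to 0.642. WT CD11b arrays paired with WT DP (0.248 to 0.456) and WT CD27 arrays (0.218 to 0.324). For WT CD27 with WT DP arrays the 3 values were 0.440, 0.139 and -0.0094, which is not pairing, and no subset of KO arrays paired with WT arrays. Alternatives were cyclic loess, only probe sets brighter than the median, array weights, a trended robust prior, 1 probe set per gene, the compared groups alone, a fixed or random block, each array left out, KO replicate 3 left out, and the arrays of a sample averaged. The random block was the replicate number within a genotype. The fixed block was the same between subsets and in the interaction, and for KO against WT it was the number shared by both genotypes. For the lists of other genes only the random block, the average and the loss of KO replicate 3 were run, a choice made after seeing the data.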

Additional observations from a re-analysis of the deposited data

How the results depend on the processing

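With a fixed replicate block, 18 of the 40 genes passed in WT CD11b against CD27 cells (8 without it), 12 in KO CD11b against CD27 cells (3 without), 6 in WT CD11b against DP cells (1 without), 5 in KO CD11b against DP cells (1 without) and 2 in CD11b KO against WT cells (0 without). The last of these is between arrays whose numbers do not pair, and the calls were Oas3 and Gbp3. As a random block the replicate number gave 14, 5, 3 and 2 between the same pairs of subsets and 3 for KO against WT averaged over subsets (7 without it). No other count moved by over 1.5 times under a block. With array weights 9 genes passed in CD27 KO against WT cells (1 without, median 0.18 log2, against -0.01), 1 in CD11b KO against WT cells, 2 in WT CD11b against DP cells, 14 in WT CD11b against CD27 cells and 12 in KO CD11b against CD27 cells. Cyclic loess gave 1 in CD11b KO against WT cells, 2 in WT CD11b against DP cells and 5 in KO CD11b against CD27 cells. With the compared groups alone the count was 0 in CD27 KO against WT, DP KO against WT, KO CD11b against DP and KO CD11b against CD27 cells and 1 in CD11b KO against WT cells. Without KO replicate 3 it was 3 in CD27 and 1 in CD11b KO against WT cells and 0 in KO CD11b against DP cells, and the DP median was 0.17 log2, against -0.01 with it. With the arrays of a sample averaged, 0 passed in the average over subsets. The causes of these shifts were not tested. With 1 array left out the counts were 4 to 7 in WT CD11b against CD27 cells, 4 to 7 in the average over subsets, 1 to 3 in KO CD11b against CD27 cells, 0 to 1 in WT CD11b against DP cells and 0 in each case in KO CD11b against DP cells, and the DP median was -0.062 to 0.17. Probe sets above the median mean, the intensity trend with a robust prior and 1 probe set per gene moved no count by over 1.5 times. For array weights, cyclic loess, the compared groups alone and single arrays left out, the share of all probe sets called is not given. Those counts therefore do not show whether the shifts were particular to these genes. No call of the 40 genes reversed its direction under the alternatives run for it. Of the calls on KO against WT averaged over subsets, those of Oas3, Samhd1 and Oasl2 were kept under 26 of 27 alternatives, Herc6 under 23, Zbp1 under 20, Ifitm3 under 12 and Gbp3 under 11.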
